A study of Homo sapiens with 4 samples.

Results

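The Krüppel-like factors (KLFs) are transcription factors that bind GC-rich and CACCC-type sequences through C2H2 zinc fingers at their C-terminal end, and their N-terminal parts recruit activators or corepressors. Here 10 of these genes were followed, KLF2, KLF3, KLF4, KLF6, KLF7, KLF9, KLF10, KLF11, KLF13 and KLF16, among 64252 genes in all. They were chosen by name from the family members other than KLF1, found by Ensembl identifier, and all 10 were in the count table. KLF5, KLF8, KLF12, KLF14, KLF15, KLF17 and KLF18 are not among the 10 and are counted with the other KLF and SP genes below. Members of the family are commonly sorted by their partners. KLF2, KLF4, KLF6 and KLF7 act mainly as activators, KLF3 is a repressor that recruits the corepressor CtBP, and KLF9, KLF10, KLF11, KLF13 and KLF16 bind the corepressor SIN3A. In blood cells KLF1 drives red cell genes, KLF2 is known for T cell quiescence and KLF4 for monocyte differentiation.

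RNA was sequenced from cells labelled NB4, an acute promyelocytic leukemia line that carries the PML-RARa fusion, after 24 h with 8 μM dBET1 (2 libraries) or with an equal volume of its solvent DMSO (2 libraries), as the design text of the series gives. dBET1 is a bifunctional degrader that brings BET bromodomain proteins to CRBN, the substrate receptor of a ubiquitin ligase. All 4 libraries come from the same cell line, the labels name no other agent, and they do not say whether the replicates were separate cultures, so that p-values measure only the spread between these samples, which may be technical. Totals ran from 28019956 to 34685645 counts per library. At the RNA level, BRD2 and BRD3, whose proteins are targets of dBET1, had log2 fold changes of 0.76 and 0.56, and CRBN of -0.07.

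The label was set against marker genes. Of 10 neutrophil granule and promyelocyte markers, ELANE and CTSG were at 0 counts in all libraries. MPO was at 0 in both DMSO libraries and had 22 and 10 counts with dBET1. In CPM (counts per megacount of TMM-normalised library size), the 10 summed to 58.1 and 59.5 with DMSO and 45.7 and 47.5 with dBET1. Most of this came from CD33, LYZ and SPI1. At an edgeR adjusted p under 0.05, MPO was called higher, LYZ and SPI1 lower, and 4 of the 7 tested did not pass. Of all tested genes, 28.0% were called higher and 27.6% lower. Erythroid markers, in contrast, summed to 6291 and 7589 CPM with DMSO and to 3855 and 3779 CPM with dBET1, and 9 of the 10 were lower after dBET1 at an edgeR adjusted p under 0.05. The granule genes that define promyelocytes were therefore at or near 0, and the cells are called here by their label. Monocyte markers (5 genes) summed to 17.9 and 23.6 CPM with DMSO and to 13.2 and 15.3 CPM with dBET1. CD68 fell, while CD14, CSF1R and ITGAM rose from few counts. With DMSO these had 18 and 14, 3 and 4, and 22 and 9 counts. With dBET1 they had 27 and 48, 17 and 12, and 170 and 152 counts. Each was under 1 CPM with DMSO, a range in which 44.3% of tested genes rose past 2-fold. The count filter before the test keeps genes with enough counts in either group. Genes this low with DMSO could thus be tested through their dBET1 counts alone, which raises this share. Lymphoid markers (5 genes) summed to at most 2.46 CPM in any library, with CD2 and MS4A1 at 0. In bulk RNA, fewer cells of a type and less RNA per cell cannot be told apart, and the part of these markers in the KLF changes was not tested.

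After dBET1, KLF2, KLF4, KLF6 and KLF10 rose and KLF16 fell, while KLF3, KLF7, KLF9, KLF11 and KLF13 did not pass the test. The rises ran from 2.40-fold for KLF10 to 9.46-fold for KLF2, and KLF16 fell to 0.526 of its DMSO level. Calls rest on the quasi-likelihood test of edgeR, adjusted over 17971 tested genes by the Benjamini-Hochberg method, with a threshold of 0.05. All 10 KLF genes passed the count filter. With 4 of the 10 called higher and 1 called lower, these 10 genes stood beside 28.0% of all tested genes called higher and 27.6% called lower, or 55.6% in either direction. The balance of all genes depended on the scaling, since with total counts only 6703 genes were called higher and 3573 lower, while 4 members were higher and 1 lower there too. Past a 2-fold change as well, 4 were higher, beside 16.9% of all tested genes. KLF16 was short of a 2-fold fall, a size that 8.54% of tested genes passed. The median log2 fold change of the 10 was 0.22 and that of all tested genes was 0.05. Libraries of the groups did not overlap for 8 of the 10, with 6 higher and 2 lower after dBET1, beside 41.9% and 37.4% of all tested genes.

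**Figure D1:**
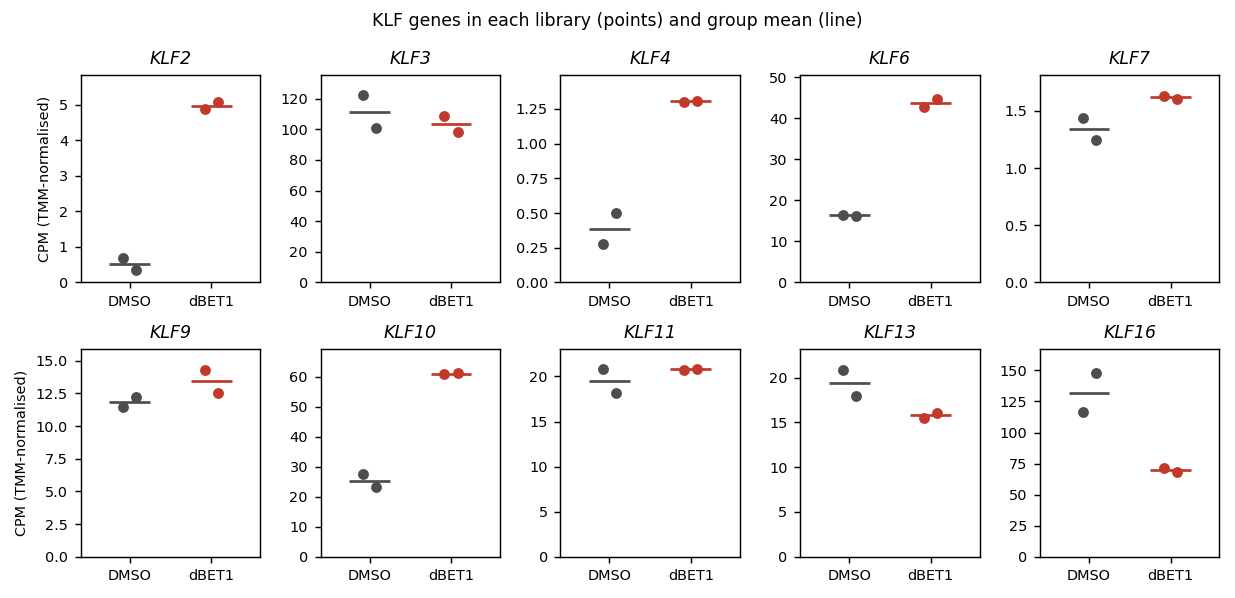
CPM (TMM-normalised, linear axes from 0) of the 10 KLF genes in each library, as points, with the mean of each group as a line. KLF2, KLF4, KLF6 and KLF10 lie higher in both dBET1 libraries and KLF16 lies lower, while the groups overlap for KLF3 and KLF11.

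The start regions of 3 genes that rose (KLF2, KLF4 and KLF6) and of the gene that fell (KLF16) are shown to set their sequences beside their changes. Each is a RefSeq window on GRCh38.p14 from 250 bases before the start of transcription to 50 after it, 5′ to 3′ on the gene's own strand. They lie at chr19:16324576-16324875 (forward strand) for KLF2, chr9:107489720-107490019 (reverse strand) for KLF4, chr10:3785160-3785459 (reverse strand) for KLF6 and chr19:1863530-1863829 (reverse strand) for KLF16. Capitals mark matches on either strand to the TATA box (TATAAA), the CCAAT box, the E-box letters CACGTG, the cyclic AMP response element (TGACGTCA), the AP-1 site (TGANTCA), the CArG box or the MEF2 element.
KLF2: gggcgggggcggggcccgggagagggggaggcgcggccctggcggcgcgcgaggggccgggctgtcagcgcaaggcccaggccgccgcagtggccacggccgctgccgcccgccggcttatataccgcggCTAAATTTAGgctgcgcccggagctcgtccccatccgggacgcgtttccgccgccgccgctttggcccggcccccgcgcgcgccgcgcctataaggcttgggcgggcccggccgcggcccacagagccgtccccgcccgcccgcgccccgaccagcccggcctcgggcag
KLF4: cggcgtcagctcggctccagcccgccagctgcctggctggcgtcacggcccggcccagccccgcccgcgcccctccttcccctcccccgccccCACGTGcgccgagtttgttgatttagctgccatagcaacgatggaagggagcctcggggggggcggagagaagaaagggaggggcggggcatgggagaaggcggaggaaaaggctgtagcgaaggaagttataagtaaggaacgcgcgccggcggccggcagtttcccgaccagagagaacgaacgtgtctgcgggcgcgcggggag
KLF6: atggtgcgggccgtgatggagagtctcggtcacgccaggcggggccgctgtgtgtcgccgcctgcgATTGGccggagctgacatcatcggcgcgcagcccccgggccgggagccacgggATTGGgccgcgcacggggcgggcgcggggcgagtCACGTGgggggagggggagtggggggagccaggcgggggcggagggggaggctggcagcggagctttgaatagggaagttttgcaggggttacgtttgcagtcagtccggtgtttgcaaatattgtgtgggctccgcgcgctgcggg
KLF16: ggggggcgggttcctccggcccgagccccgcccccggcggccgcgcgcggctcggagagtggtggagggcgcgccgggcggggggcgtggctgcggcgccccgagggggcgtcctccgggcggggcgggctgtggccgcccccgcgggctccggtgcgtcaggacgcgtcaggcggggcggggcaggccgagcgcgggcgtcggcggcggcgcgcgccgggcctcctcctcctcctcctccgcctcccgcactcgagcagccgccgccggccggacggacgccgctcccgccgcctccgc

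The KLF2 window held 1 MEF2 element, which starts 120 bases before the start of transcription, and such an element was in 2.99% of all 35116 promoter windows. KLF4 and KLF6 each held 1 CACGTG, the core letters of the E-box (7.26% of all windows), and KLF6 also held 2 CCAAT boxes on the reverse strand (34.6% of all windows). The KLF16 window held none of these motifs. GC boxes (GGGCGG on either strand, overlaps counted) numbered 6 in KLF2, 4 in KLF4, 2 in KLF6 and 7 in KLF16, and 45.0% of all windows held at least 1. Such letters are also what KLF and SP proteins can bind, so the windows of the genes that rose and of the gene that fell shared them. None of the 4 windows held the shorter CACCC, which was in 59.9% of all windows. GC content was 80.7% for KLF2, 69.0% for KLF4, 70.7% for KLF6 and 86.0% for KLF16, against a median of 58.7% over all windows, and the KLF16 value was above that of 99.9% of them. Of the 10 genes, 8 matched 12 windows in all. A CACGTG was also in 1 of the 2 KLF11 windows and 1 of the 4 KLF7 windows, and neither gene passed the test. Such a match describes letters and not a bound site.

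Among the activator-type genes, KLF2 had the largest change of the 10 members. The gene lies on chromosome 19 of hg38 (ENSG00000127528, 16324826 to 16328685, forward strand). Its DMSO libraries held 22 and 10 counts and its dBET1 libraries 146 and 155. Both dBET1 libraries lay well above both DMSO libraries. The mean level was 0.515 ± 0.225 CPM with DMSO and 4.97 ± 0.151 CPM with dBET1 (± SD, n = 2), and the log2 fold change was 3.24 (SE 0.346, edgeR adjusted p = 0.000179, 95% interval 2.44 to 4.05). The size of the change depended on which DMSO library was kept, at 3.76 without DMSO replicate 1 and 2.84 without DMSO replicate 2. Of all tested genes, 96.8% had a lower log2 fold change. KLF2 has related pseudogenes, and 1 of them, KLF2P4, also gained counts, from 60 and 94 with DMSO to 177 and 191 with dBET1 (log2 fold change 1.24, SE 0.305, edgeR adjusted p = 0.0102). Its best alignment to the KLF2 transcript covered 529 bases at 71.3% identity. Summed over both genes, the mean CPM with dBET1 was 3.56 times that with DMSO.

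KLF4, a reprogramming factor that also acts in monocyte and epithelial differentiation, was a gene of few counts (ENSG00000136826, chromosome 9, 107484852 to 107490482, reverse strand). It had 9 and 14 counts with DMSO and 39 and 40 with dBET1. The groups did not overlap, although all 4 values were low. The mean level was 0.387 ± 0.157 CPM with DMSO and 1.30 ± 0.00768 CPM with dBET1 (± SD, n = 2), and the log2 fold change was 1.76 (SE 0.439, edgeR adjusted p = 0.0107, 95% interval 0.74 to 2.78). Without dBET1 replicate 2 the adjusted p from edgeR was 0.0510, so the call was lost there, at a log2 fold change of 1.74. With a minimum of 10 counts in every library KLF4 was not tested. KLF2 and KLF4 were both under 1 CPM with DMSO, a range in which 44.3% of 4165 tested genes rose past 2-fold, against 8.58% of 13806 genes at 1 CPM or more. These shares are not like for like. The count filter let genes under 1 CPM with DMSO be tested through their dBET1 counts, which raises the 44.3%.

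KLF6, a widely expressed early-response factor studied as a tumor suppressor, rose with little spread between replicates (ENSG00000067082, chromosome 10, 3775996 to 3785281, reverse strand). The DMSO libraries had 538 and 455 counts, which were 16.5 and 16.2 CPM. The dBET1 libraries had 1287 and 1363 counts, or 42.9 and 44.6 CPM, far above the DMSO pair. The mean level was 16.3 ± 0.210 CPM with DMSO and 43.8 ± 1.25 CPM with dBET1 (± SD, n = 2), and the log2 fold change was 1.42 (SE 0.103, edgeR adjusted p = 3.26e-05, 95% interval 1.18 to 1.66). Leaving out each library gave 1.38 to 1.44. In its abundance range, 1 CPM or more, 8.58% of genes rose past 2-fold. KLF7, its nearest relative by common grouping and a factor of neuronal growth, had 47 and 35 counts with DMSO and 49 and 49 with dBET1. Its levels were 1.44 and 1.25 CPM against 1.63 and 1.61 CPM, close together although the groups did not overlap. The log2 fold change was 0.27 (edgeR adjusted p = 0.488), with a 95% interval of -0.45 to 0.98.

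KLF3 was the repressor of the CtBP type in the set and is known as a gene that KLF1 activates in red cells. It was 1 of the 2 most abundant members with DMSO. KLF3 (ENSG00000109787, chromosome 4, 38664197 to 38701517, forward strand) reached 122 and 101 CPM with DMSO and 109 and 98.2 CPM with dBET1. The groups overlapped. The log2 fold change was -0.11 (SE 0.109, edgeR adjusted p = 0.432, 95% interval -0.36 to 0.15). Without DMSO replicate 2, the lower of the DMSO libraries, it was -0.27 with an edgeR adjusted p of 0.0107, and without DMSO replicate 1 it was 0.01.

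The SIN3A-type genes moved apart. KLF10 rose, KLF16 fell, and KLF9, KLF11 and KLF13 did not pass the test. The 5 had a median log2 fold change of 0.09, against 1.59 for KLF2, KLF4, KLF6 and KLF7. Of the latter, KLF7 did not pass the test, and KLF2 and KLF4 were under 1 CPM with DMSO. In that range 44.3% of tested genes rose past 2-fold, a share raised by the count filter. KLF10, first described as an early gene of TGF-β signalling, lies on chromosome 8 (ENSG00000155090, 102648784 to 102655725, reverse strand). It reached 27.6 and 23.2 CPM with DMSO and 60.8 and 61.2 CPM with dBET1. Both dBET1 values were over 2 times either DMSO value. The mean level was 25.4 ± 3.14 CPM with DMSO and 61.0 ± 0.225 CPM with dBET1 (± SD, n = 2), and the log2 fold change was 1.26 (SE 0.109, edgeR adjusted p = 6.77e-05, 95% interval 1.01 to 1.52). KLF11, its closest paralog and also TGF-β inducible, stayed between 18.1 and 20.8 CPM in all 4 libraries. Its log2 fold change was 0.09 (SE 0.127, edgeR adjusted p = 0.557, 95% interval -0.20 to 0.39), an interval that lies below that of KLF10.

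KLF16, a GC-box binding repressor that had the highest level per length (CPM per kb) of the 10 with DMSO, was the member that fell (ENSG00000129911, chromosome 19, 1852399 to 1863579, reverse strand). It had 3794 and 4164 counts with DMSO, which were 116 and 148 CPM. With dBET1 it had 2133 and 2073 counts, or 71.1 and 67.9 CPM. Both dBET1 libraries were below both DMSO libraries, and the DMSO pair was the wider. The mean level was 132 ± 22.6 CPM with DMSO and 69.5 ± 2.24 CPM with dBET1 (± SD, n = 2), and the log2 fold change was -0.93 (SE 0.119, edgeR adjusted p = 0.000433, 95% interval -1.20 to -0.65). It was past a 2-fold fall without DMSO replicate 1, at -1.12, and short of it without DMSO replicate 2, at -0.77. Of all tested genes, 10.9% had a lower log2 fold change.

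KLF9 and KLF13 complete the SIN3A type. KLF9, a gene induced by glucocorticoid and thyroid hormone, was at 11.5 and 12.2 CPM with DMSO and 14.3 and 12.5 CPM with dBET1. These values nearly touched, and the log2 fold change was 0.18 (SE 0.152, edgeR adjusted p = 0.349, 95% interval -0.18 to 0.53). KLF13, known as an activator of the chemokine gene CCL5 in T cells, was at 20.8 and 17.9 CPM with DMSO and 15.5 and 16.1 CPM with dBET1. Both dBET1 values were lower. The log2 fold change of -0.29 did not pass the test (SE 0.136, edgeR adjusted p = 0.101, 95% interval -0.61 to 0.02), and it did without DMSO replicate 2, at -0.43 with an edgeR adjusted p of 0.0274.

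**Figure D2:**
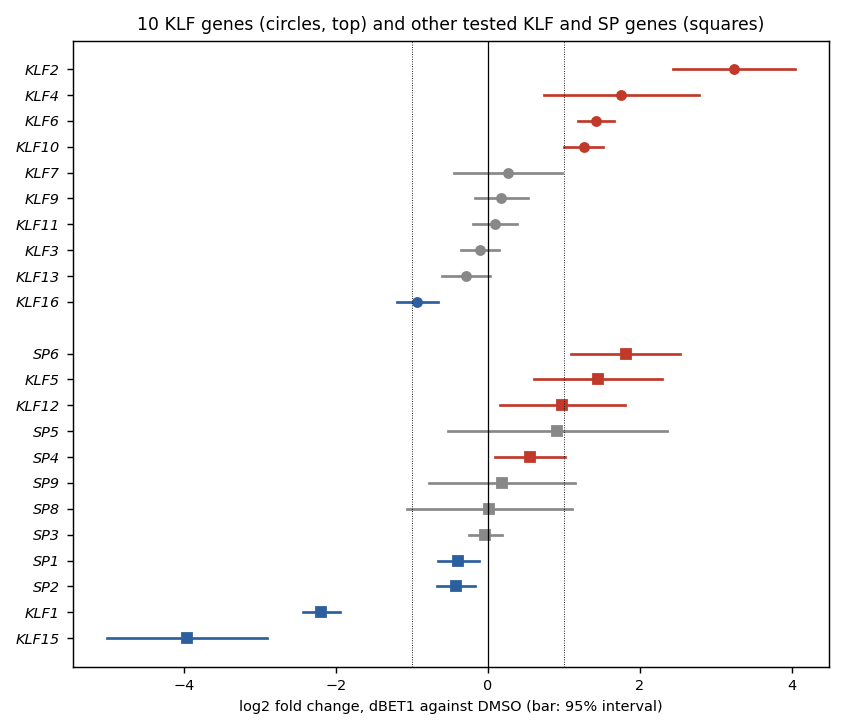
Log2 fold change (dBET1 against DMSO) with its 95% interval for the 10 KLF genes (circles) and the 12 other tested KLF and SP genes (squares), with dotted lines at 1 and -1. Red marks genes called higher and blue marks genes called lower at an edgeR adjusted p under 0.05. KLF2 is at 3.24 and KLF16 at -0.93, the ends of the 10 genes, and KLF15 lies lowest at -3.97.

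Compared per length, the makeup of the followed KLF genes changed. Their sum had a mean of 79.3 CPM per kb with DMSO and 72.9 with dBET1. KLF1 is outside this sum, and its mean was 143 CPM per kb with DMSO and 31.2 with dBET1. The sum therefore does not describe the whole family. Levels between genes were set side by side as CPM per kb of merged exons. With DMSO the order was KLF16 (44.6 ± 7.61 CPM per kb), KLF3 (16.4 ± 2.25), KLF10 (6.65 ± 0.822), KLF11 (4.24 ± 0.409), KLF6 (2.66 ± 0.0341), KLF9 (2.28 ± 0.102), KLF13 (2.05 ± 0.220), KLF2 (0.183 ± 0.0798), KLF7 (0.140 ± 0.0143) and KLF4 (0.106 ± 0.0429 CPM per kb; SD, n = 2). The neighbours KLF9 and KLF13, KLF2 and KLF7, and KLF7 and KLF4 overlapped between libraries. With dBET1 KLF16 was still highest (23.4 ± 0.754 CPM per kb), but KLF10 (16.0 ± 0.0589) and KLF3 (15.3 ± 1.08) now overlapped, KLF6 followed (7.13 ± 0.204), and KLF2 (1.76 ± 0.0534 CPM per kb) stood next to KLF13 (1.68 ± 0.0418). With the longest transcript in place of merged exons, KLF3 was above KLF10 and KLF13 above KLF2 with dBET1.

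The 10 genes summed to 338 and 339 CPM with DMSO and to 342 and 329 CPM with dBET1. Per length the sums were 76.6 and 82.1 CPM per kb with DMSO and 74.1 and 71.7 CPM per kb with dBET1. The groups did not overlap per length. Such sums depend on the scaling, since total counts only moved the members' median log2 fold change from 0.22 to 0.43. KLF16 held 51.2% and 60.8% of the sum per length with DMSO, against 32.3% and 32.0% with dBET1. KLF10 held 9.45% and 7.39% with DMSO and 21.5% and 22.3% with dBET1. The share of KLF6 went from 3.51% and 3.21% to 9.43% and 10.2%. KLF3 held 23.6% and 18.1% with DMSO and 21.6% and 20.2% with dBET1, so its groups overlapped. KLF2, although it had the largest fold change, reached only 2.33% and 2.51% of the sum with dBET1. These shares are a description of 2 libraries a group, since a fall in the largest member raises the shares of the others.

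**Figure D3:**
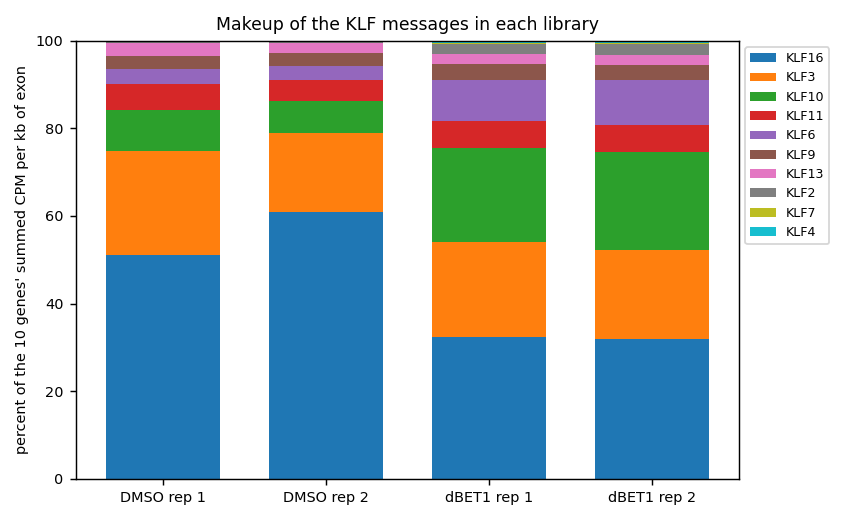
Share of each KLF gene in the summed CPM per kb of exon of the 10 genes (percent, stacked to 100), for each of the 4 libraries. KLF16 takes 51.2% and 60.8% with DMSO and 32.3% and 32.0% with dBET1, and the KLF10 and KLF6 segments are wider with dBET1.

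**Figure D4:**
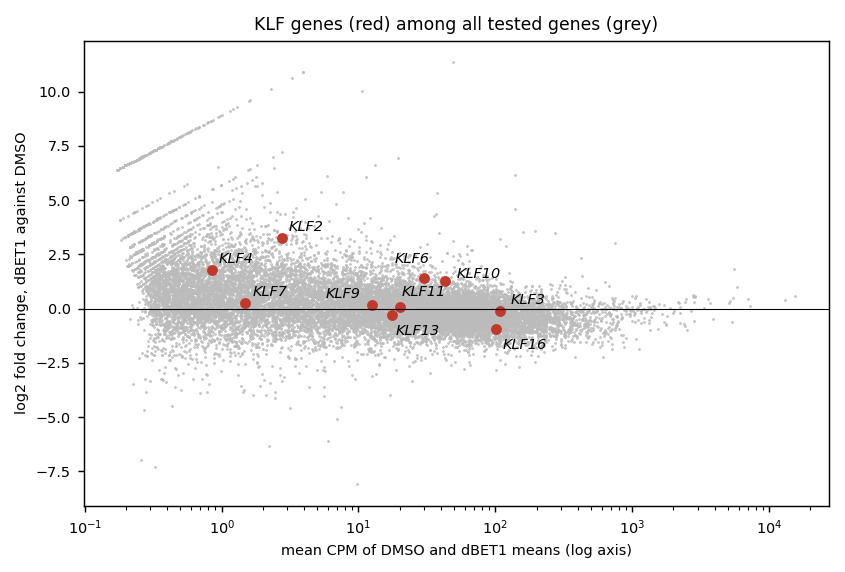
Log2 fold change (dBET1 against DMSO) against mean CPM (log axis) for all 17971 tested genes (grey) and the 10 KLF genes (red). KLF2 and KLF4 lie at low abundance, where many genes rose, and KLF6 and KLF10 lie higher than most genes of their abundance.

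Among other members of the KLF and SP families, some rose and some fell, beside 28.0% of all tested genes higher and 27.6% lower. Of 17 such genes 16 were in the table and 12 were tested. Of these 4 rose (KLF5, KLF12, SP4 and SP6) and 4 fell (KLF1, KLF15, SP1 and SP2). KLF5 and KLF12 were at 0.828 and 0.813 CPM with DMSO. Under 1 CPM, 44.3% of tested genes rose past 2-fold, a share raised by the count filter. KLF1, the erythroid factor, went from 230 ± 29.2 to 50.4 ± 2.38 CPM (± SD, n = 2; log2 fold change -2.19, SE 0.105), beside the lower erythroid markers given above. KLF15, a metabolic and glucocorticoid-responsive factor, had 111 and 126 counts with DMSO and 11 and 4 with dBET1 (log2 fold change -3.97, SE 0.453, edgeR adjusted p = 0.000245). SP6 had 35 and 48 counts with DMSO and 130 and 165 with dBET1 (log2 fold change 1.81, SE 0.310, edgeR adjusted p = 0.00181). SP1 and SP3, the widely expressed GC-box factors, had log2 fold changes of -0.39 and -0.03. KLF14 had 0 counts in both DMSO libraries and 8 and 13 with dBET1, at least 3.49-fold higher against 3 counts per DMSO library. KLF8 was listed at 0 in all libraries. Without dBET1 replicate 1, 2 of these genes were higher and 2 lower, and without dBET1 replicate 2, 1 was higher and 2 lower. KLF1, KLF15 and SP6 passed the test in each fit that left out a library. KLF12 lost its call with the replicate number as a block (edgeR adjusted p = 0.0598), with DESeq2, with no count filter, and without DMSO replicate 2 or either dBET1 replicate. SP1, SP2 and SP4 lost theirs without either dBET1 replicate, KLF5 without dBET1 replicate 2, and SP1 and SP2 with total counts only. SP1 and SP4 also lost theirs with no count filter. SP4 lost its call without DMSO replicate 2 as well, at a log2 fold change of 0.28.

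Of 23 KLF cofactor genes tested, 10 were lower, 4 were higher and 9 did not pass the test, beside 27.6% of all tested genes lower and 28.0% higher. All 10 that fell did so by less than 2-fold. Among the subunits of the SIN3 and HDAC complexes, RBBP7 had the largest fall (log2 fold change -0.92, SE 0.0710, edgeR adjusted p = 4.17e-05), HDAC3 was at -0.67 and SIN3A itself was at -0.54. CTBP1, the CtBP gene with the higher level, was at -0.41. The genes that rose were the acetyltransferase genes KAT2B, at 18.2 ± 2.74 CPM with DMSO and 47.2 ± 1.32 with dBET1 (SD, n = 2), and CREBBP, the SIN3A paralog SIN3B, and FBXO32, a ubiquitin ligase gene. FBXO32 had 9 and 8 counts with DMSO and 45 and 26 with dBET1, and its call was lost without dBET1 replicate 1 (edgeR adjusted p = 0.115). Without either dBET1 library 2 cofactor genes were higher, and CREBBP lost its call without dBET1 replicate 2. SIN3B lost its call without DMSO replicate 1, without either dBET1 replicate, with DESeq2 and with no count filter. CREBBP also lost its call with no count filter. With total counts only, 6 were lower and 7 higher.

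The list of genes known upstream or downstream of KLFs held 28 genes, of which 24 were tested, 10 rose and 5 fell, beside 28.0% of all tested genes higher and 27.6% lower. This list, like the members and the other lists, was chosen with earlier results of these data known. Such counts therefore only describe the listed genes. CDKN1A, the p21 gene and a reported KLF4 and KLF6 target, had 44 and 41 counts with DMSO and 370 and 420 with dBET1, a log2 fold change of 3.21. TXNIP, a stress-responsive inhibitor of thioredoxin, and ATF3, a stress-induced transcription factor, followed at 3.04 and 2.48. From the TGF-β group, SMAD7, the inhibitory SMAD gene, went from 2.88 ± 0.00116 to 9.84 ± 1.40 CPM (SD, n = 2). TGFB1 had a log2 fold change of 0.75 and SMAD3 of 0.02, while TGFBR2 had at most 2 counts in any library. Among the MEF2 genes, whose element is in the KLF2 window printed above, MEF2C fell (log2 fold change -0.64, SE 0.114, edgeR adjusted p = 0.00214). MEF2A was listed at 0 in all libraries, and the reason was not tested. MEF2D was at 0.40, a call lost without DMSO replicate 2, without dBET1 replicate 1 and with no count filter. Of the glucocorticoid-responsive genes, FKBP5 and PER1 fell (-0.54 and -1.06), and TSC22D3, called higher at 1.85, had only 12 and 2 counts with DMSO and lost the call in 3 of the 4 fits that left out a library. S1PR1, a KLF2 target in lymphocytes, had no more than 5 counts in any library. CCND1, the cyclin D1 gene, had the largest fall of the list, with 118 ± 3.87 CPM in DMSO and 42.7 ± 2.24 CPM in dBET1 (SD, n = 2).

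Genes next to the 10 members were also read, since counts were not stated to use strand. In GENCODE 16 genes overlapped a member or started within 5 kb of it, of which 4 were tested. The opposite-strand lncRNAs at KLF4, KLF6 and KLF10 were not in the count table, so they could not be read. The lncRNA ENSG00000260077 starts 2186 bases from the start of KLF11 on the opposite strand. It was called higher (log2 fold change 1.49, edgeR adjusted p = 0.00548). KLF3-AS1 overlaps KLF3 on the opposite strand. Its counts were 24 and 24 with DMSO and 35 and 38 with dBET1, against 2826 to 3986 counts of KLF3 in the 4 libraries. The lncRNA ENSG00000267141 overlaps KLF16 on the opposite strand. Its counts were 35 and 30 with DMSO and 16 and 12 with dBET1. It moved in the same direction as KLF16 with few counts. Of the 20 nearest coding neighbours, 13 were tested, 3 were higher and 3 lower, beside 28.0% and 27.6% of all tested genes. REXO1, which starts 3916 bases past the end of KLF16 on the same strand, had a log2 fold change of -0.13 (edgeR adjusted p = 0.245), and ABHD17A, on the other side of KLF16, of -0.07. The KLF2 neighbours AP1M1 and EPS15L1 were at 0.36 and -0.02, and the KLF6 neighbours PITRM1 and AKR1E2 at -0.31 and -0.0046. Around KLF11 the coding neighbours rose, GRHL1 by a log2 fold change of 1.16 and CYS1 from 0 counts in both DMSO libraries to 10 and 15, beside the KLF11 log2 fold change of 0.09 that did not pass the test.

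**Figure D5:**
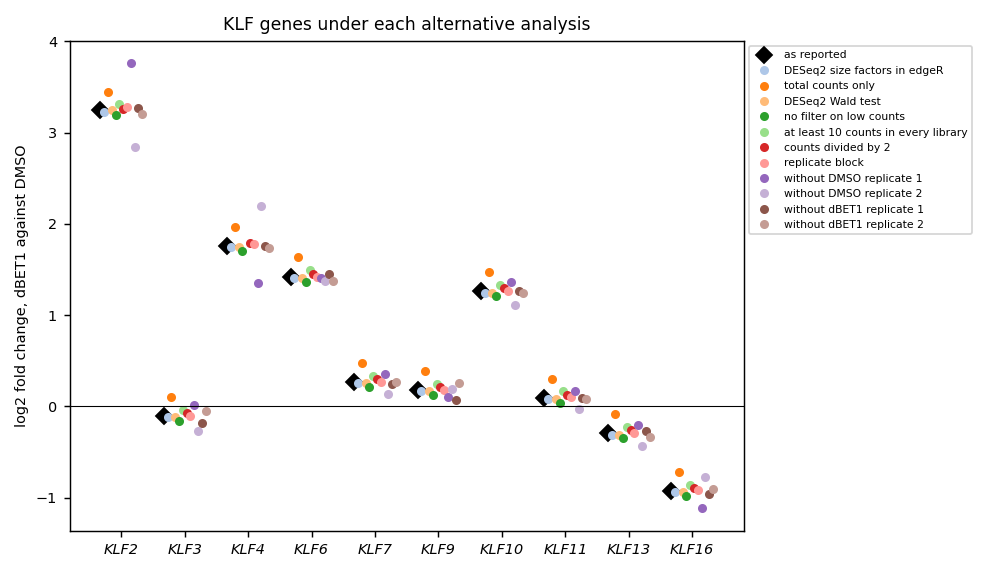
Log2 fold change (dBET1 against DMSO) of the 10 KLF genes as reported (black diamonds) and under each alternative analysis (coloured points). KLF2, KLF4, KLF6 and KLF10 are above 0 and KLF16 is below 0 in every analysis, while KLF3 and KLF11 have points on both sides of 0.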

How the data were processed

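Reads of 4 RNA-seq libraries were filtered by the sequencing company, aligned to hg38 (Ensembl) with HISAT2 2.2.0 and passed to StringTie by the authors, who deposited raw counts for each gene as whole numbers. How StringTie output became counts, and whether strand was used, is not given in the sources used here. Columns were matched to samples by group, time and replicate number (0 columns left out, 0 rows without a gene name). Symbols came from GENCODE 44 (56105 of 64252 identifiers).

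The fit used R 4.3.3, edgeR 4.0.16 (with limma 3.58.1 installed) and these settings (filterByExpr, TMM factors of 0.918 to 1.08, quasi-likelihood test, group only). P-values of the 17971 genes were adjusted by the Benjamini-Hochberg method. Each standard error was the log2 fold change divided by the square root of F. CPM used TMM-scaled totals, and lengths were merged GENCODE exons. Replicates differed beyond counting noise (chi-square per degree of freedom 23.6 for DMSO and 8.14 for dBET1). This was taken only over genes past a minimum of counts summed over the replicate pair. Totals were 28019956 to 34685645 counts. The fit was tested on simulated data. Also run were a DESeq2 1.42.0 Wald test, edgeR with DESeq2 scaling, scaling by total counts, other count filters, counts divided by 2, a replicate block and each library left out.

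The members, the gene lists (relatives, cofactors, linked genes, markers) and the tests were chosen with earlier results of these data known. Genes named by rule are the members, the called list genes with the largest changes, neighbours, dBET1 targets and markers; other list genes and KLF2P4 were named after their values were seen. Protein sequences of the members were planned and not analysed here. RefSeq promoter windows matched 8 of the 10 members; KLF3 and KLF10 were not analysed there.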

Additional observations from a re-analysis of the deposited data

How the results depend on the processing

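KLF2, KLF6, KLF10 and KLF16 kept their direction and call in all 11 alternatives. When single libraries were left out, 3 to 4 members were higher (3 to 4 past 2-fold), 1 to 3 were lower and 0 to 1 were lower past 2-fold, the 3 without DMSO replicate 2 and the 1 past 2-fold without DMSO replicate 1. In the same fits the relatives counted 1 to 5 higher and 2 to 5 lower genes, the cofactors 2 to 5 higher and 8 to 13 lower, the KLF-linked genes 6 to 10 higher, and all tested genes 3356 to 5118 higher. KLF3 changed sign with total counts only (0.10), and over the fits without 1 library it ran from -0.27 to 0.013. KLF11 ran from -0.032 to 0.17 there, negative without DMSO replicate 2. The fits in which they changed sign made no call. Total counts only moved the median of all tested genes from 0.05 to 0.26 and that of the members to 0.43, and gave 952 genes lower past 2-fold, 2 relatives lower, and 7 cofactors higher and 6 lower; the shift of the scale is part of how it is built. With no count filter, 2 cofactors and 6 KLF-linked genes were higher. With at least 10 counts in every library, 1940 genes were higher past 2-fold, since fewer genes were tested, and KLF4 could not be. With the longest transcript as length, 6 of the 10 members kept their rank with dBET1. Beyond length and tested genes, the cause was not tested.

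Replicate numbers are shared between the groups without a stated pairing, and deviations of same-numbered libraries had a correlation of -0.00052 across genes. With the replicate number as a block, 4 members were higher and 1 was lower, and 4976 genes were higher and 4897 lower overall. Among the relatives, 3 were then higher, since KLF12 lost its call (edgeR adjusted p = 0.0598). KLF7 had 35 to 49 counts per library, and its standard error of 0.308 was larger than its log2 fold change of 0.27.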
